A study of Mus musculus with 13 samples.

Results

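The genes described here are 10 genes of bone morphogenetic protein (BMP) signalling: the ligand Bmp4, the type I receptors Acvr1, Bmpr1a and Bmpr1b, the inhibitory Smads Smad6 and Smad7, and the Id family targets Id1, Id2, Id3 and Id4. They were taken as a list of names, to which no threshold on a measured value was applied, and are 10 of the 55450 genes in the GENCODE M21 annotation of the mouse genome build mm10. Chromatin accessibility was measured by Omni-ATAC, in which a transposase cuts open DNA, in cultured mouse oligodendrocyte precursor cells (OPCs), the dividing cells that give rise to myelinating oligodendrocytes. The 13 libraries formed 4 groups: 3 control and 3 K27M cultures from brainstem, and 3 control and 4 K27M cultures from dorsal telencephalon, the tissue that the labels call cortex. K27M cells came from mice labelled AMGFAP-Cre;K27M (the driver is hGFAP-Cre in the study's methods), in which a Cre driver active in neural stem and progenitor cells switches on histone H3.3 with lysine 27 replaced by methionine from the endogenous gene, and control cells came from littermates. Both genotypes and both regions shared the same handling: P5 to P7 pups pooled by region and genotype, depletion of endothelial cells and microglia, selection on anti-PDGFRa, and growth in a proliferation medium containing PDGF, CNTF, neurotrophin-3 and forskolin, with no differentiation. A culture was therefore a pool of animals, and cultures are named here by the number in the labels.

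BMP ligands bind a pair of type I and a pair of type II receptors, the type I receptor phosphorylates Smad1, Smad5 or Smad9, and these enter the nucleus with Smad4 to activate targets. The Id genes are direct targets; their proteins bind basic helix-loop-helix factors such as Olig2 and keep them from DNA, and BMP is known to hold OPCs back from the oligodendrocyte fate and to favour astrocytes. Smad6 and Smad7 are also induced by the pathway and block it. The comparisons below address whether promoters and nearby open sites of these genes differed by region of origin, by genotype, or in their response to K27M between the regions.

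The deposited values were peaks, called separately in each library, each with a fold over the local background. A library's list held 16879 to 52466 peaks, and the read depth behind a list is unknown. A gene without a peak was one without a called peak, which does not show closed chromatin, and in these bulk cultures fewer open cells and less opening per cell cannot be told apart. Because lists differed in length and scale, each fold is also given as its percentile among all peaks of the same library. The control telencephalon culture 59 stood apart with the shortest list. Promoters of the OPC markers Pdgfra, Olig1, Olig2, Sox10 and Gpr17 had a peak in all 13 libraries, while Cspg4 had one in 3. Of 6 astrocyte markers 3 had a promoter peak in all 13 libraries, of 5 neuronal markers also 3, and of 5 microglial, 5 endothelial and 5 mature oligodendrocyte markers none. Within the last 3 lists the counts were uneven: P2ry12 (microglia) and Mbp (myelin) had a promoter peak in 12 libraries and Flt1 (endothelium) and Myrf (myelin) in 11, while Cx3cr1, Csf1r, Cdh5, Tek, Mog and Mag had one in 0. Whether other cell types were present was not tested.

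The sequences below carry the sites that the results turn on: the promoters of Id2, Id3 and Id4, which are direct targets of the pathway, the internal promoter of Bmpr1b, where detection differed most between genotypes, and the distal peaks of Bmp4 and Bmpr1a. RefSeq promoter entries of build GRCm38, the assembly that mm10 names, matched 8 of the 10 genes, all but Id1 and Smad7, with 10 entries. Each promoter is the 250 bases before the RefSeq start, moved upstream past any annotated untranslated region that covered or adjoined it. The Id2 and Bmpr1b windows lie inside their annotated genes, which have starts farther upstream. Each distal window is the 300 bases in the middle of the stretch that the peaks of all 13 libraries covered. All are written 5′ to 3′ on the strand of the named gene. Capitals mark matches, on either strand, to GGCGCC (the GC-rich element bound by BMP Smads), CAGAC (the short Smad-binding element), TGANTCA (the AP-1 site) and ACAAAG (the SOX core). The windows are chr12:25096254-25096503 on the minus strand for Id2, chr4:136143247-136143496 on the plus strand for Id3, chr13:48260866-48261115 on the plus strand for Id4, chr3:141931589-141931838 on the minus strand for Bmpr1b, chr14:46409072-46409371 on the minus strand for Bmp4 and chr14:34549038-34549337 on the minus strand for Bmpr1a.
Id2 promoter: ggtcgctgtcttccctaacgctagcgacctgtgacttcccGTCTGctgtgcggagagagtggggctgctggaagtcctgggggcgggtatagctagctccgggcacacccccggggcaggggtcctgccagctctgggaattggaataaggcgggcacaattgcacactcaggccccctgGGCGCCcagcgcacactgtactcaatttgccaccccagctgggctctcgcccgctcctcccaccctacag
Id3 promoter: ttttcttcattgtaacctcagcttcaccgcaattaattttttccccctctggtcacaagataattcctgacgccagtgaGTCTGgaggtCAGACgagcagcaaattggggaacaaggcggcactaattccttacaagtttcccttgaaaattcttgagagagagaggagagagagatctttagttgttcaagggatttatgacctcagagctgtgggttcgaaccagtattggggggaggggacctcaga
Id4 promoter: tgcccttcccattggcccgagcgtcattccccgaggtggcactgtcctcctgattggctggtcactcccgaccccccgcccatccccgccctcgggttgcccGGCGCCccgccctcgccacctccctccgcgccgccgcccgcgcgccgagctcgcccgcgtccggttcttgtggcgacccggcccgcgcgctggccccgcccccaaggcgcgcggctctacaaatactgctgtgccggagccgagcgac
Bmpr1b internal promoter: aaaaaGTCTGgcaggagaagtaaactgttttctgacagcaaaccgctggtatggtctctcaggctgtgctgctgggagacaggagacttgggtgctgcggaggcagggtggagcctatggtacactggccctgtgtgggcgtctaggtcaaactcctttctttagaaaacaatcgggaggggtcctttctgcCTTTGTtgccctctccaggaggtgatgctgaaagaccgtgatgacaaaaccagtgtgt
Bmp4 distal peak: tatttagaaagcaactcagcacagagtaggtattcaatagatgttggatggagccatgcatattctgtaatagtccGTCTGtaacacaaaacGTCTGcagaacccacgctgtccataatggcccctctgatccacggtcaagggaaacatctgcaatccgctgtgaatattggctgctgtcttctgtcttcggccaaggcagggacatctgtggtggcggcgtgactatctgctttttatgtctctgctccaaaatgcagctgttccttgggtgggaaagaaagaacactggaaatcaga
Bmpr1a distal peak: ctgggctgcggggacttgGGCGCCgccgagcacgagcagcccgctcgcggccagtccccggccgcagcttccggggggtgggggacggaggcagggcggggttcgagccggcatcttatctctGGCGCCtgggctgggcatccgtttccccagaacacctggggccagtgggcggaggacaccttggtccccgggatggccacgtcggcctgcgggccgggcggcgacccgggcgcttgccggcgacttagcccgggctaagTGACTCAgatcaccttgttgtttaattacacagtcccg

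The Id2 and Id4 windows each held 1 GGCGCC, and the Bmpr1a distal window held 2. Of 32851 windows of the same length directly before RefSeq starts 9.59% held this motif. Of 3980 distal peak windows of the same length 4.10% did. The GC content was 71.0% in the Bmpr1a distal window, 75.6% in the Id4 window and 65.2% in the Id2 window. The shares were not matched for base composition, so they do not show that the motif is enriched. The Id2 and Id3 windows end 161 and 325 bases short of their RefSeq starts, so the promoter shares are for a different position. The Id3 window and the Bmp4 distal window each held 2 CAGAC matches, and the Id2 and Bmpr1b windows 1 each, against 42.2% of promoter windows and 56.5% of distal windows with at least 1. The AP-1 match in the Bmpr1a distal window was the only one in the 6 windows, and 14.5% of distal windows held one. The SOX core was found once, in the Bmpr1b window, and in 16.5% of promoter windows. These are letter matches and not evidence of binding.

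Base composition separated the receptor promoters. The 300-base entry of Acvr1 had 51 CpG dinucleotides and a GC content of 83.7%, and that of Bmpr1a had 48 and 79.3%. The 3 Bmpr1b entries, which do not include the outermost starts, had 5 to 6 CpG and 48.3% to 55.7% GC, against a median of 7 CpG and 52.7% over all entries. Among the targets Id4 had 39 CpG, Id2 21 and Id3 19, Smad6 had 31, and Bmp4 had 12.

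A peak was counted at a promoter when it overlapped the 2 kb before to 1 kb after any annotated transcription start. By this measure 8 of the 10 genes had a promoter peak in all 13 libraries: the receptors Acvr1, Bmpr1a and Bmpr1b, the inhibitor Smad7, and all 4 Id genes. Over all annotated genes 20.7% (11483) did. That base holds noncoding genes as well as coding ones, and 32354 of its genes had a promoter peak in no library. The share among coding genes alone was not computed. Each library had a promoter peak at 8 to 10 of the genes. The remaining genes were the ligand Bmp4, found in 10 libraries, and the inhibitor Smad6, found in 8.

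**Figure D1:**
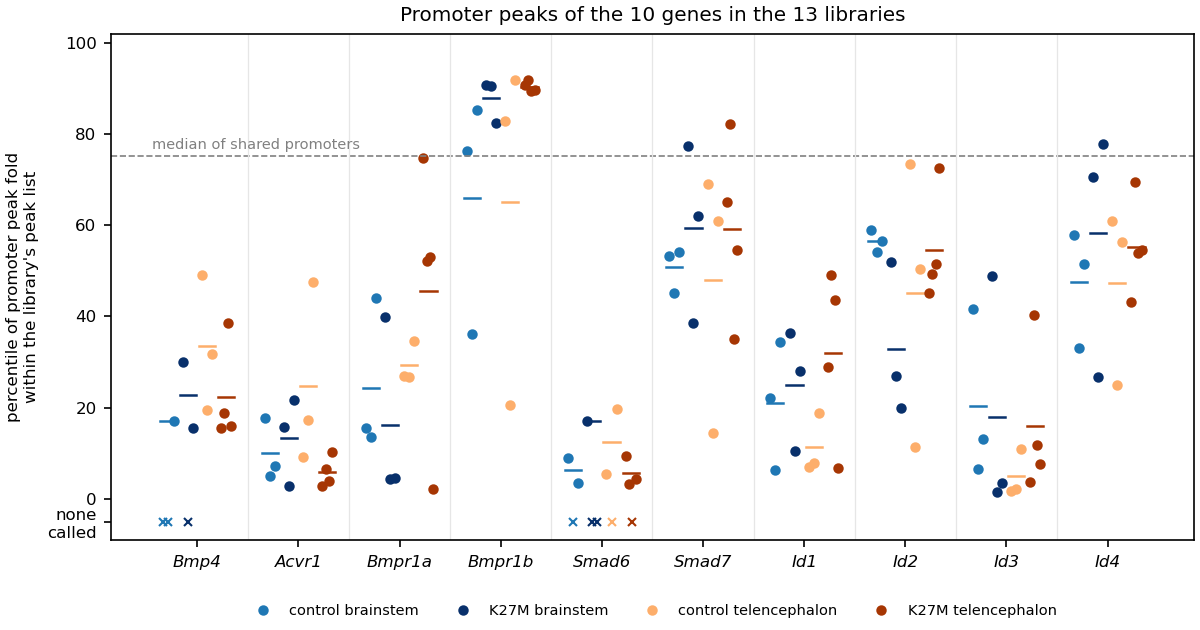
Percentile of the promoter peak fold within its own library's list (y axis) for each of the 10 genes (x axis), 1 point per library, coloured by group, with a bar at the group mean over libraries with a peak and a cross where no promoter peak was called. Bmpr1b lies highest with a mean of 78.4, Acvr1 and Id3 lie lowest among genes found in every library with means of 12.9 and 14.9, and crosses appear only at Bmp4 (3 libraries) and Smad6 (5 libraries).

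The peaks were shallow. Over the 8 promoters found in every library the median of the mean percentiles was 39.0, against 75.2 over all 11483 shared promoters, and the median of the mean folds was 2.80 against 3.55. Bmpr1b was the exception, with a mean percentile of 78.4 and 56.6% of the shared promoters at or below it. The others, from high to low, were Smad7 with a mean percentile of 54.8, Id4 with 52.4, Id2 with 47.9, Bmpr1a with 30.2, Id1 with 23.1, Id3 with 14.9 and Acvr1 with 12.9. For Acvr1 1.11% of shared promoters lay at or below its mean, for Id3 1.40%, for Id1 2.81% and for Bmpr1a 4.95%. Neighbours in this order overlapped: the SD over the 13 libraries was 18.3 percentile points for Smad7, 16.5 for Id4, 18.5 for Id2, 22.2 for Bmpr1a, 14.9 for Id1, 16.9 for Id3 and 12.1 for Acvr1. The caller averages fold over a peak's whole width, and the median width was 2692 bp at Acvr1 and 1993 bp at Id4 against 920 bp at Id2 and 1126 bp at Bmpr1b. The part of width in the order was not tested.

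When every list was reduced to its 16879 most significant peaks, Id2, Id4 and Smad7 still had a promoter peak in all 13 libraries and Bmpr1b in 12. Id3 kept one in 9, Bmpr1a in 8, Id1 in 6, Acvr1 in 3, Bmp4 in 1 and Smad6 in 0. The cut removes the least significant peaks by construction, so it cannot test whether list length set detection. A difference in detection at Bmp4 or Smad6 cannot be told apart from a peak that lay just below the calling cutoff.

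Bmp4, the ligand of the list, lies at chr14:46383520-46390669 on the minus strand. Its promoter peak was called in all 7 telencephalon libraries and in 3 of 6 brainstem libraries, which were the control culture 61 and the K27M cultures 41 and 61. The fold was 2.58 in that control brainstem culture, and 2.49 and 2.48 in the K27M brainstem cultures. In control telencephalon cultures 51, 59 and 61 the fold was 2.69, 2.57 and 2.73. In K27M telencephalon cultures 41, 51, 59 and 61 it was 2.49, 2.40, 2.86 and 2.42. The ranges overlapped between all groups with more than 1 peak except that both K27M brainstem values lay below the 3 control telencephalon values. With 10 libraries Bmp4 fell outside the 5 to 8 libraries in which detection was tested, so its regional split is a description. The 3 libraries without it had lists of up to 34168 peaks, and the shortest list of all, with 16879, had it. At −log10 p from 3.70 to 4.90 the Bmp4 peaks were close to the weakest peaks in the lists, whose lowest −log10 p was 2.82 to 3.44.

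The clearest accessible site near Bmp4 was not its promoter. A merged peak (overlapping peaks of the 13 libraries joined) at chr14:46408477-46409761, centred 18450 bp upstream of the nearest start, in no annotated gene, was found in all 13 libraries. Its fold was 3.51, 4.75 and 5.19 in control brainstem cultures 51, 59 and 61, and 5.13, 4.50 and 3.82 in K27M brainstem cultures 41, 59 and 61. In telencephalon it was 3.68, 3.06 and 4.78 in control cultures 51, 59 and 61, and 4.61, 4.99, 4.04 and 4.68 in K27M cultures 41, 51, 59 and 61. All groups overlapped, with control telencephalon culture 59 lowest. The mean percentile was 92.4, and of all 3999 peaks found in every library outside promoters 89.3% lay at or below it. The fitted log2 difference was 0.01 ± 0.07 (SE) between regions and 0.05 ± 0.08 between genotypes (adjusted p = 0.995 and 0.999, limma). This is the site whose middle 300 bases are shown above, and the next nearest coding gene after Bmp4 was Gm15217, 27992 bp away.

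Among the 8 genes with a promoter peak in every library, the type I receptors held both the lowest and the highest mean percentile. Acvr1 (chr2:58388644-58567157, minus strand), a receptor for several BMPs and for activin-class ligands, had folds from 2.25 to 2.98 with a median of 2.39. In 12 libraries the value came from 1 merged peak, chr2:58565135-58568796, which also covered a transcription start of the neighbouring coding gene Upp2. In control telencephalon culture 61 the highest value, 2.98, came from another peak at an internal start (chr2:58515518-58516121), called in no other library, and the shared peak had 2.43 there. In control telencephalon cultures 51, 59 and 61 its fold was 2.28, 2.55 and 2.98, and in K27M telencephalon cultures 41, 51, 59 and 61 it was 2.25, 2.26, 2.39 and 2.34. On the log2 scale centred by library the K27M values of the highest peak, −0.83 to −0.52, lay below the control values, −0.50 to −0.19. At the shared peak alone the groups overlapped, at −0.83 to −0.51 in K27M and −0.67 to −0.19 in control libraries. Separation of the highest peaks in telencephalon occurred at 4.86% of the 11483 shared promoters. The fitted difference was −0.24 ± 0.12 (SE; adjusted p = 1.00, limma) for the highest peak and −0.14 ± 0.13 (adjusted p = 0.999) at the shared one, and for the highest peak the difference between the regions in the effect of genotype was 0.21 ± 0.17 (adjusted p = 1.00).

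Bmpr1a (chr14:34410734-34503341, minus strand), the widely expressed BMP type I receptor, had folds from 2.12 to 3.27 with a median of 2.64. In brainstem the fold was 2.60, 2.62 and 2.97 in control cultures 51, 59 and 61, and 2.64, 2.43 and 2.28 in K27M cultures 41, 59 and 61. In telencephalon it was 2.47, 2.64 and 2.77 in control cultures 51, 59 and 61, and 3.27, 2.94, 3.03 and 2.12 in K27M cultures 41, 51, 59 and 61. The deposited values overlapped in both regions, and the K27M telencephalon cultures held both the highest and the lowest value of all. Across regions the fit placed it lower in brainstem by −0.16 ± 0.08 on the log2 scale, with an unadjusted p of 0.0470 and an adjusted p of 0.945 (limma).

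Bmpr1b, the type I receptor with restricted expression, had the strongest promoter signal. It has 5 annotated starts, as do Acvr1 and Smad7. GENCODE places its starts in 3 regions of the gene at chr3:141837136-142169425 on the minus strand: an outermost pair, a middle start, and an innermost pair. The outermost region had a peak in all 13 libraries and the middle region in 12, missing only in control telencephalon culture 59. The highest promoter fold was 3.49, 2.85 and 4.17 in control brainstem cultures 51, 59 and 61, and 4.38, 4.07 and 3.49 in K27M brainstem cultures 41, 59 and 61. In telencephalon it was 3.34, 2.58 and 4.46 in control cultures 51, 59 and 61, and 3.82, 4.48, 3.89 and 3.82 in K27M cultures 41, 51, 59 and 61. K27M libraries ranged from 3.49 to 4.48 and control libraries from 2.58 to 4.46, so the genotypes overlapped, with the lowest 3 values in control libraries. These values came from the outermost start in 11 libraries and from the middle start in K27M brainstem cultures 59 and 61, whose outermost start had 3.69 and 3.04. The fitted log2 difference of K27M from control was 0.19 ± 0.08 (SE; 95% interval 0.03 to 0.34), with an unadjusted p of 0.0204 and an adjusted p of 0.999 (limma). It was 0.22 ± 0.11 in brainstem and 0.15 ± 0.10 in telencephalon, and the difference between these, 0.08 ± 0.14, had an adjusted p of 1.00. At the outermost start alone (merged peak chr3:142168480-142170171), which was found in all 13 libraries, the difference by genotype was smaller, at 0.11 ± 0.08 with an unadjusted p of 0.179 and an adjusted p of 0.999 (limma). It was 0.09 ± 0.11 in brainstem and 0.13 ± 0.10 in telencephalon.

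The innermost start region of Bmpr1b differed most in detection. A merged peak at chr3:141931280-141932698, over the starts of 2 annotated transcripts and their first exon, was called in 6 of 7 K27M libraries and in 0 of 6 control libraries. The K27M peaks had folds of 2.82 and 2.51 in brainstem cultures 59 and 61, and 2.69, 3.25, 3.27 and 2.48 in telencephalon cultures 41, 51, 59 and 61. The K27M brainstem culture 41 had none. In K27M brainstem culture 61 and K27M telencephalon cultures 59 and 61 the peak ended just short of the starts, at −0.008, −0.005 and −0.005 kb. Only the merged peak covers the starts in those libraries. The control brainstem culture 61, whose list was the longest, had no peak inside this merged peak. It had a separate peak farther upstream (chr3:141933125-141934313, fold 2.54) that reached into the promoter window of these starts. The two-sided Fisher's exact test gave p = 0.00466, and the adjusted p over the 11706 merged peaks tested was 1.00. Of those 11706 peaks 28 (0.239%) had a p this small or smaller. Counted by promoter window, as in the promoter tests, 6 of 7 K27M and 1 of 6 control libraries had a peak at the innermost starts (unadjusted p = 0.0291, Fisher's exact test, a count added after the data were seen). The peaks were weak, with −log10 p from 3.83 to 7.60. Within the 16879 most significant peaks per list 1 library kept it, and at a −log10 p of at least 10 none did. By region it was found in 2 of 6 brainstem and 4 of 7 telencephalon libraries (p = 0.592, Fisher's exact test).

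**Figure D2:**
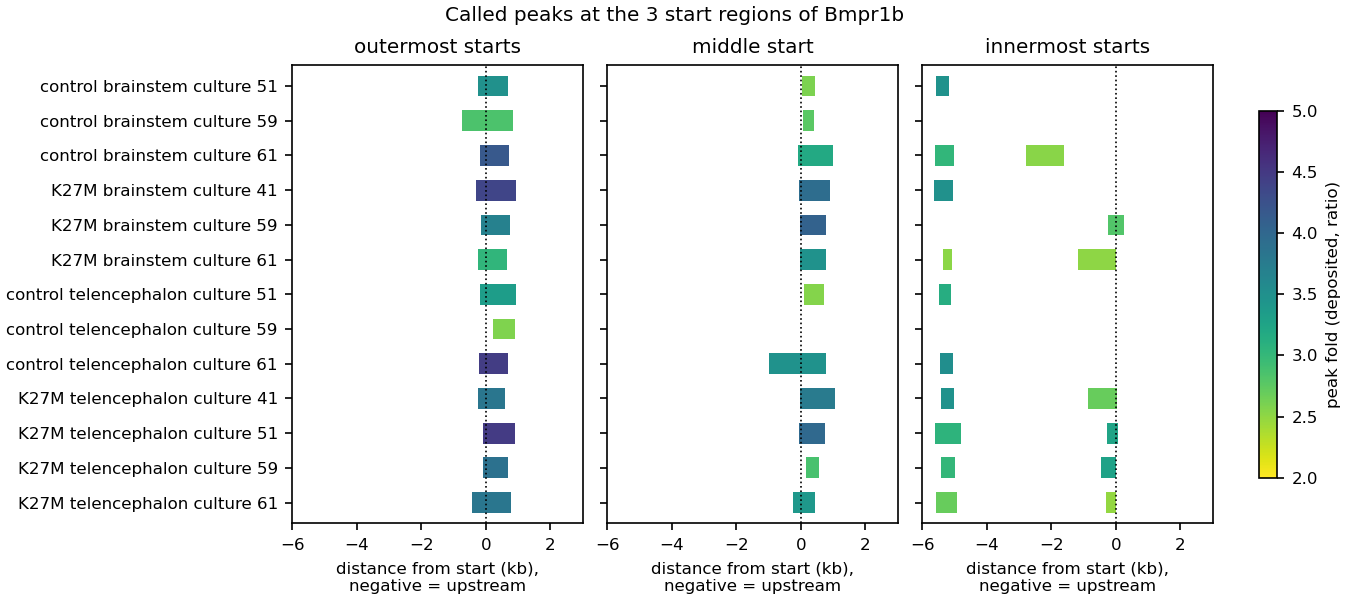
Called peaks (horizontal bars, coloured by deposited fold, a ratio) in each of the 13 libraries (rows) around the 3 start regions of Bmpr1b, with distance from the start in kb on the x axis and negative values upstream. Bars cross or reach within 1 kb of the outermost start in 13 libraries and the middle start in 12. At the innermost start bars cross it or reach within 1 kb in 6 K27M libraries and in no control library. A bar farther upstream, between −2.79 kb and −1.60 kb from the innermost start, belongs to control brainstem culture 61, and bars near 5 kb upstream occur in both genotypes.

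At the middle start of Bmpr1b (merged peak chr3:141981212-141983238) the fold was 2.59, 2.77 and 3.18 in control brainstem cultures 51, 59 and 61 and 3.94, 4.07 and 3.49 in K27M brainstem cultures 41, 59 and 61. In telencephalon it was 2.56 and 3.48 in control cultures 51 and 61, and 3.77, 3.99, 2.87 and 3.40 in K27M cultures 41, 51, 59 and 61. The brainstem groups did not overlap at this start and the telencephalon groups did. With 3 libraries against 3, 8.27% of the 11483 shared promoters separated K27M from control in brainstem after centring by library. The values given here are deposited folds, for which no such share was computed. The middle-start peak was missing from 1 library, so it was not in the fit over peaks found in all libraries, and it was chosen for description after its values were seen.

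A further peak near Bmpr1a differed most by region. It was centred 45881 bp upstream of Bmpr1a at chr14:34548420-34550024, inside an intron of Ldb3, a gene of muscle Z-discs, with the start of 9230112D13Rik nearest. Its fold was 3.81, 3.32 and 4.37 in control brainstem cultures 51, 59 and 61 and 5.02, 4.30 and 3.65 in K27M brainstem cultures 41, 59 and 61. In telencephalon it was 3.39, 3.03 and 4.01 in control cultures 51, 59 and 61, and 2.82, 4.37, 3.09 and 2.86 in K27M cultures 41, 51, 59 and 61. Brainstem libraries had a median of 4.05 and telencephalon libraries of 3.09, with overlapping ranges. The log2 difference was 0.23 ± 0.07 (SE; 95% interval 0.08 to 0.37) with an unadjusted p of 0.00328 and an adjusted p of 0.572 (limma). The effect of K27M was 0.25 ± 0.11 in brainstem and −0.18 ± 0.10 in telencephalon. The test of that difference gave 0.43 ± 0.14 with an unadjusted p of 0.00515 and an adjusted p of 0.999 (limma). For this difference 536 of the 13075 peaks tested had an unadjusted p under 0.05, as did 1 of the 15 locus peaks among them. The assignment to Bmpr1a rests on distance alone.

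Of the inhibitory Smads, Smad7 (chr18:75367529-75395935, plus strand), which blocks type I receptors, had the stronger promoter. Its fold ranged from 2.51 in control telencephalon culture 59 to 3.91 in K27M telencephalon culture 51, with a median of 3.03, and all 4 groups overlapped. The log2 difference was −0.02 ± 0.07 by region and 0.05 ± 0.07 by genotype (adjusted p = 0.990 and 0.999, limma). A peak 24519 bp upstream of Smad7 was also found in all 13 libraries, with a mean percentile of 79.4.

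Smad6 (chr9:63953076-64022059, minus strand), which acts mainly on BMP receptors, was detected at its promoter in 3 of 6 brainstem and 5 of 7 telencephalon libraries, and in 4 control and 4 K27M libraries. Its fold was 2.50 and 2.29 in control brainstem cultures 51 and 61 and 2.35 in K27M brainstem culture 41. It was 2.22 and 2.59 in control telencephalon cultures 51 and 61, and 2.41, 2.18 and 2.21 in K27M telencephalon cultures 41, 51 and 61. Fisher's exact test gave p = 0.592 by region and 1.00 by genotype (adjusted p = 1.00 for both), where 0.0% of the 1815 promoters tested passed the adjusted threshold in either comparison and 2.15% by region and 1.21% by genotype had an unadjusted p under 0.05. The 8 libraries with the peak had lists of 31990 peaks or more, and the 5 without it had lists of 34168 or fewer. List length thus moved with detection of Smad6, and its part was not tested.

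The Id promoters were found in every library and differed little between groups. Id1 (chr2:152736251-152737410, plus strand) had folds from 2.25 to 2.91 with a median of 2.58. Id3 (chr4:136143497-136145755, plus strand) had folds from 2.08 to 2.88 with a median of 2.46. Both stood below Id2, with 2.46 to 3.24 and a median of 3.01, and Id4 (chr13:48261228-48266026, plus strand), with 2.63 to 3.41 and a median of 3.04, although the ranges of all 4 overlapped.

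For Id2 (chr12:25093799-25097140, minus strand) the brainstem values separated. The fold was 3.13, 3.06 and 3.22 in control brainstem cultures 51, 59 and 61 and 2.89, 2.77 and 2.54 in K27M brainstem cultures 41, 59 and 61. The telencephalon folds were 3.10, 2.46 and 3.03 in control cultures 51, 59 and 61, and 2.76, 2.87, 3.01 and 3.24 in K27M cultures 41, 51, 59 and 61. Every control brainstem library was above every K27M brainstem library, while the telencephalon groups overlapped. After centring by library the brainstem gap was narrow, with K27M at −0.47 to −0.35 and control at −0.34 to −0.14. The fitted difference was −0.16 ± 0.12 in brainstem (adjusted p = 1.00, limma) and the difference between regions in that effect was −0.14 ± 0.15 (adjusted p = 1.00).

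After centring by library, 3 of the 8 promoters separated K27M from control in brainstem without overlap: Bmpr1b upward, and Id2 and Bmpr1a downward. Over all shared promoters 8.27% did so, with 3 libraries against 3. The Bmpr1a values there were −0.60 to −0.50 in K27M and −0.46 to −0.36 in control libraries, and those of Bmpr1b were 0.11 to 0.19 and −0.24 to 0.04. The fitted differences of these 3 promoters in brainstem were 0.22 ± 0.11 for Bmpr1b, −0.16 ± 0.12 for Id2 and −0.21 ± 0.12 for Bmpr1a, and none passed the adjusted threshold. The Bmpr1b separation rested on the change of start between libraries: at the outermost start alone the brainstem values were −0.07 to 0.15 in K27M and −0.24 to 0.04 in control libraries, which overlap. Id2 and Bmpr1a took their values from 1 merged peak in all 13 libraries.

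In the fit over all 11483 shared promoters, 0 of the 8 genes were called by region at an adjusted p under 0.05, where 0.0174% of promoters were. By genotype 0 of 8 were called, where 0.0% were. The same held for genotype within brainstem (0.0%), genotype within telencephalon (0.0%) and the interaction of genotype and region (0.0%). At an unadjusted p under 0.05, 1 of 8 passed by region (Bmpr1a) against 5.12% of all promoters, and 1 of 8 by genotype (Bmpr1b) against 4.39%. Over the 8 genes the log2 difference ran from −0.16 to 0.03 by region, with 6 lower and 2 higher in brainstem, and from −0.13 to 0.19 by genotype, with 4 in each direction. The regional split changed with the scale: without centring, where the median of all promoters was 0.07 higher in brainstem, 7 were higher and 1, Bmpr1a, was lower. The genotype split stayed at 4 and 4 without centring, and Bmpr1b then had an unadjusted p of 0.121. The 95% intervals reached no farther than −0.33 and 0.34 in either comparison.

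**Figure D3:**
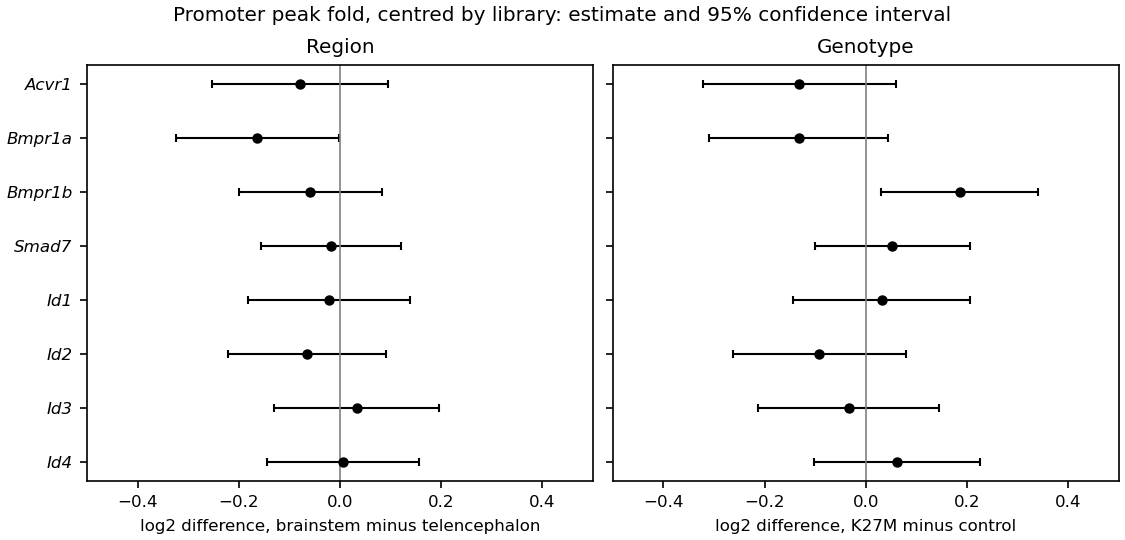
Fitted log2 difference in promoter peak fold (x axis, values centred by library) with its 95% confidence interval for the 8 genes with a promoter peak in all 13 libraries, brainstem minus telencephalon on the left and K27M minus control on the right. Intervals that leave out 0 are those of Bmpr1a by region (−0.33 to −0.0023) and Bmpr1b by genotype (0.03 to 0.34), and neither passed adjustment over all promoters.

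Within 50 kb of the 10 genes lay 128 of the 99746 merged peaks: 17 at promoters, 41 in gene bodies and 70 beyond. Every library had 15 of these (11.7%), and 51 (39.8%) came from 1 library, against 13.1% and 43.1% of all merged peaks. None of the 41 gene-body peaks was found in all libraries, and 8 at promoters and 7 beyond were. Bmpr1a had 25 merged peaks, Bmpr1b 23, Acvr1 16, Smad6 14, Smad7 and Id3 12 each, Id1 10, Id2 7, Id4 6 and Bmp4 3. A library had 22 to 74 peaks in these loci, which was 0.119% to 0.161% of its list. The share was 0.119% to 0.142% in K27M libraries and 0.125% to 0.161% in control libraries, so the genotypes overlapped.

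**Figure D4:**
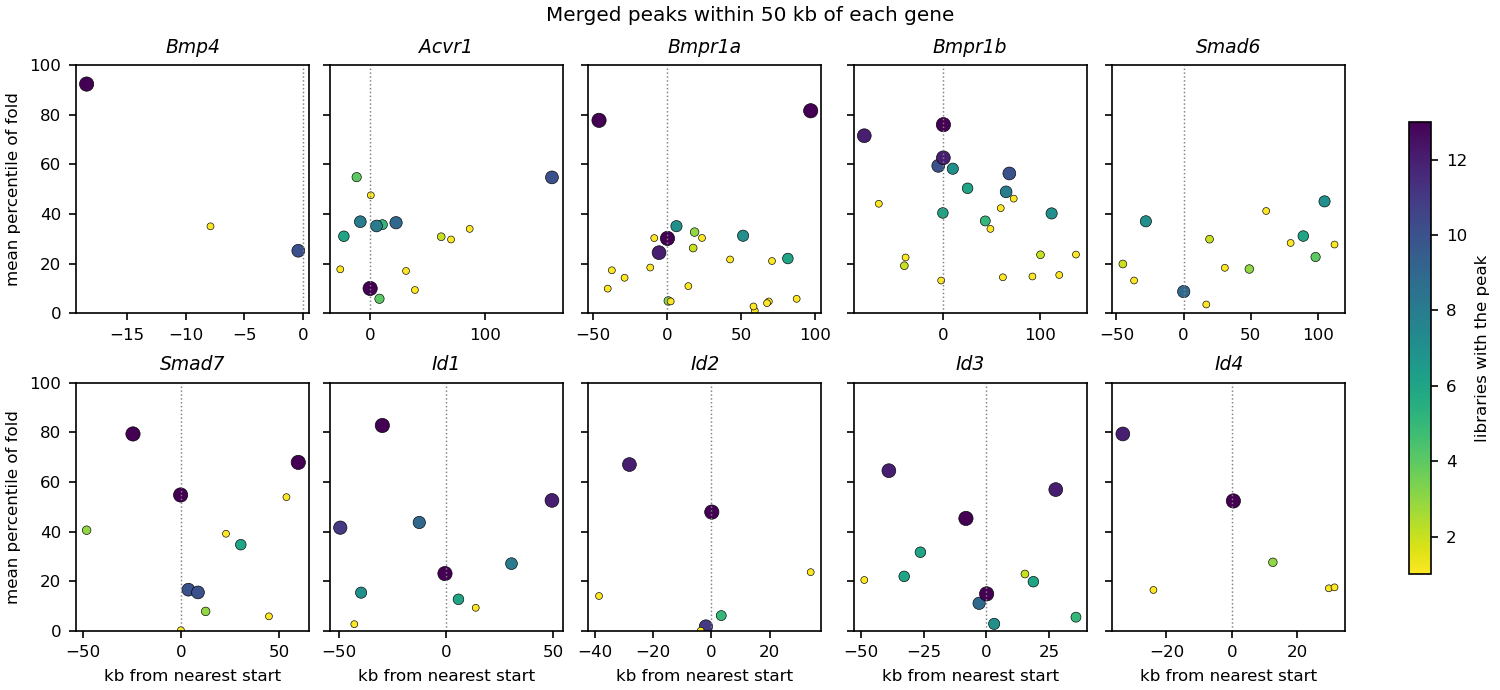
Every merged peak within 50 kb of each gene, placed by the distance of its centre from the nearest start in kb (x axis, negative upstream) and by its mean within-list percentile of fold (y axis), with colour and size giving the number of libraries with the peak. At Bmp4, Id1 and Bmpr1a the strongest peak found in all 13 libraries lay away from the promoter, with mean percentiles of 92.4, 82.8 and 81.6.

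At 5 genes a peak found in all 13 libraries lay outside the promoter, and in each its mean percentile exceeded that of the gene's own promoter. At Id1 it was 82.8 against 23.1 at the promoter, at Bmpr1a 81.6 against 30.2, at Smad7 79.4 against 54.8, at Id3 45.3 against 14.9 and at Bmp4 92.4 against 25.2. The median over all 3999 such peaks outside promoters was 75.9. The Id3 peak, 8118 bp upstream, overlapped the start window of the noncoding gene Gm26001, and the Bmpr1a peak of 81.6 lay beyond the gene's 3′ end with the starts of Fam25c and Sncg nearest. Acvr1, Bmpr1b, Smad6, Id2 and Id4 had no such peak. At Id2 and Id4 peaks 28040 bp and 33335 bp upstream, with mean percentiles of 67.1 and 79.4, were each found in 12 libraries.

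The peak upstream of Id1 was also the locus peak that differed most by genotype. It lay 29563 bp upstream at chr2:152705640-152707735, overlapping an exon and an annotated untranslated region of H13, which encodes signal peptide peptidase. The starts of the coding genes H13 and Mcts2 were nearer than that of Id1, at 14849 bp and 19653 bp. The assignment to Id1 rests on distance alone. The fold was 3.92, 3.51 and 3.96 in control brainstem cultures 51, 59 and 61 and 4.89, 3.88 and 4.03 in K27M brainstem cultures 41, 59 and 61. The telencephalon folds were 3.51, 2.72 and 3.35 in control cultures 51, 59 and 61, and 4.24, 4.89, 3.46 and 4.22 in K27M cultures 41, 51, 59 and 61. The K27M median was 4.22 and the control median 3.51, and the ranges of 3.46 to 4.89 and 2.72 to 3.96 overlapped. The log2 difference was 0.24 ± 0.08 (SE; 95% interval 0.08 to 0.40), with an unadjusted p of 0.00389 and an adjusted p of 0.826 (limma). It was 0.20 ± 0.11 in brainstem and 0.28 ± 0.10 in telencephalon, and the difference between the 2 effects was −0.07 ± 0.14 (adjusted p = 0.999).

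**Figure D5:**
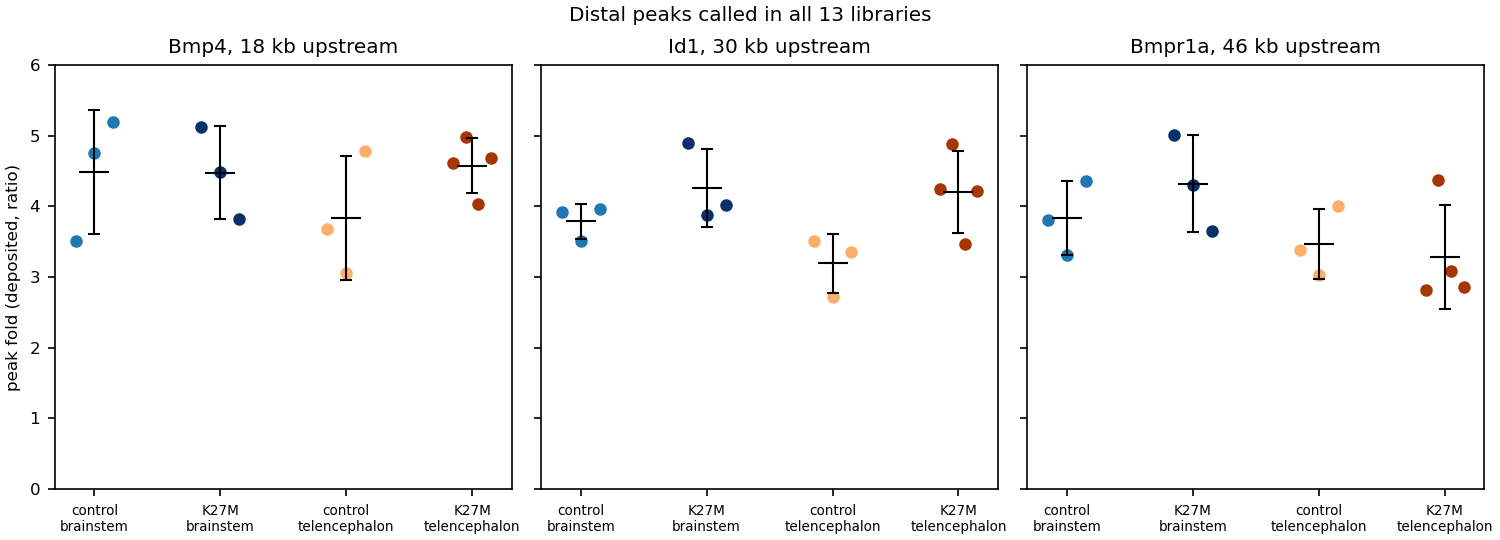
Deposited peak fold (y axis, a ratio, from 0) of the peaks upstream of Bmp4, Id1 and Bmpr1a in the 4 groups, 1 point per library, with the group mean and SD in black. The Id1 peak averages 4.23 in K27M and 3.50 in control libraries, the Bmpr1a peak 4.08 in brainstem and 3.37 in telencephalon libraries, and the Bmp4 peak 4.48 and 4.26 in the same regions.

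Over the 15 locus peaks found in all libraries, 0 were called by region, where 0.0229% of the 13075 peaks tested were, and 0 by genotype, where 0.0% were. At an unadjusted p under 0.05, 1 passed by region (the peak upstream of Bmpr1a) against 6.32% of all, and 1 by genotype (the peak upstream of Id1) against 4.57%. The promoter peaks of Bmpr1a and Bmpr1b followed in both comparisons. For Bmpr1a the log2 difference was −0.15 ± 0.08 by region and −0.13 ± 0.09 by genotype, and for the outermost Bmpr1b start it was −0.11 ± 0.07 and 0.11 ± 0.08 (adjusted p of 0.811 or above in all 4, limma). By genotype within brainstem 2 of the 15 had an unadjusted p under 0.05, as did 608 of the 13075 peaks. They were the peak upstream of Bmpr1a, at 0.25 ± 0.11, and a peak 59843 bp past the nearest Smad7 start, at −0.24 ± 0.11. Within telencephalon 1 did (the peak upstream of Id1), against 521 of all.

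Detection was tested at the 26 locus peaks found in 5 to 8 libraries. By region 0 of 26 were called at an adjusted p under 0.05 and 0 at an unadjusted p under 0.05, where 0.0% and 2.36% of the 11706 peaks tested were. The smallest p by region was 0.266, at an intronic Bmpr1b peak found in 1 of 6 brainstem and 4 of 7 telencephalon libraries. Intronic peaks of Bmpr1a and Bmpr1b found in 2 and 5 libraries of those regions followed (p = 0.286 each, Fisher's exact test).

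By genotype 0 of 26 were called at an adjusted p under 0.05, where 0.0% were, and 2 had an unadjusted p under 0.05, where 1.26% did. The first was the innermost start of Bmpr1b. The second lay 32699 bp upstream of Id3 at chr4:136110387-136111209, in no annotated gene, and went the other way, with 5 of 6 control and 1 of 7 K27M libraries (p = 0.0291, adjusted p = 1.00, Fisher's exact test). Its folds were 2.44 and 2.82 in control brainstem cultures 51 and 61, 2.44, 2.56 and 2.62 in control telencephalon cultures 51, 59 and 61, and 2.44 in K27M brainstem culture 41. Within the 16879 most significant peaks per list 1 library kept it. The third place was shared by a peak at Smad6 and a peak in Upp2, 23095 bp upstream of Acvr1, each of which was found in 4 of 6 control and 2 of 7 K27M libraries (p = 0.286, Fisher's exact test).

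The wider pathway list held 39 other genes of BMP signalling. Of these 17 had a promoter peak in all 13 libraries and 2, the ligand Bmp5 and the co-receptor Eng, in none. Among all annotated genes, noncoding ones included, 20.7% had one in all 13. A library had 30 to 36 of them, apart from control telencephalon culture 59 with 17. Of inhibitors inside the cell or in its membrane 4 of 5 were found in all libraries (Bambi, Smurf2, Ski and Skil). Of receptors 4 of 7 were (Bmpr2, Acvr2b, Rgma and Rgmb). Of the receptor-regulated and common Smads 2 of 4 were (Smad1 and Smad4), of other targets 3 of 6 (Msx1, Hey1 and Hes1), of secreted antagonists 3 of 9 (Chrd, Grem1 and Bmper) and of ligands 1 of 8 (Bmp7). The fewest libraries for any gene gave another order. They were 11 for these inhibitors, 10 for the Smads, 9 for other targets, 2 for secreted antagonists and 0 for receptors and ligands. The strongest of the 17 was Bambi, a decoy receptor and pathway target, with a mean fold of 4.19 and a mean percentile of 92.3.

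Of the 17 tested pathway promoters 0 were called by region or by genotype, where 0.0174% and 0.0% of all shared promoters were. By region 6 were higher and 11 lower in brainstem, with a median log2 difference of −0.02. An unadjusted p under 0.05 was found for 2 of the 17, against 5.12% of all shared promoters. Without centring the split was 13 higher and 4 lower. Smurf2, a ubiquitin ligase that targets receptors and Smads, was at −0.16 ± 0.07 (unadjusted p 0.0297), the homeobox target Msx1 at 0.17 ± 0.08 (0.0408), and the type II receptor Bmpr2 at 0.13 ± 0.08 (0.0954), with adjusted p of 0.922 to 0.947 in limma. By genotype 8 were higher and 9 lower in K27M, with a median of −0.03 and 0 at an unadjusted p under 0.05, against 4.39% of all shared promoters. The smallest unadjusted p belonged to Bambi at 0.13 ± 0.07 (0.0790), the Notch and BMP target Hey1 at 0.13 ± 0.11 (0.228) and the common Smad Smad4 at −0.10 ± 0.09 (0.256), each with an adjusted p of 0.999 in limma.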

How the data were processed

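OPC pellets were profiled by Omni-ATAC with paired-end sequencing in 13 cultures. The authors aligned reads to mm10 and called broad peaks in each library separately with MACS2 (version 2.2.7.1 in the submitters' processing notes, with BWA 0.7.17-r1188), using the nf-core atacseq workflow with blacklisted regions removed; the calling cutoff is not given in the sources used here. The deposited lists give a score, a fold enrichment (a ratio, averaged over each peak's width), a −log10 p-value and a −log10 q-value per peak. The fold was used for levels and the −log10 p for ranking peaks, and the score was not used. No counts come with the lists, so depth and counting error are unknown. Lists with more peaks come from libraries in which more regions passed the cutoff, and a missing peak is a value below it.

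The rule for the 10 genes used no measured value, but they and the pathway and marker lists were chosen with earlier results of these data known. Promoters were 2 kb before to 1 kb after every start of a gene in GENCODE M21, and the highest fold of the peaks overlapping them by 1 bp or more was taken, so that the value of a gene with several starts can come from different starts in different libraries. Overlapping peaks of the 13 libraries were joined into merged peaks, and those within 50 kb of a gene were assigned to it. The main test was limma 3.58.1 (R 4.3.3; trend and robust) on log2 fold minus the library's median, over features found in all 13 libraries, with 4 groups and culture number as a block, as the study's own comparisons took matched cultures into account. Culture 41 had K27M libraries only, and culture 51 had none from K27M brainstem, so the block is incomplete. With centring and this block, a fitted difference need not match the difference between the deposited folds of the groups. P-values were adjusted by Benjamini-Hochberg over all features tested, at a threshold of 0.05. Detection was tested by two-sided Fisher's exact test over features found in 5 to 8 libraries. Same-numbered libraries of different groups had a mean correlation of 0.081 in their deviations from the group means (16 pairs, −0.11 to 0.29), against −0.0275 for 47 pairs with different numbers, so the numbers were not shown to pair the samples. The limma p-values measure the spread between libraries of pooled animals that remains after group and culture number. Fisher's test took the 13 libraries as independent, although libraries of different groups share culture numbers. The limma and Fisher steps were tested on simulated data.

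All 10 genes were named, with the merged peak outside the promoter that was strongest in each among those found in all libraries, the 3 locus peaks with the smallest p in each test for region and for genotype, and the 3 pathway genes with the smallest p in each fold test. Other peaks were named after their values were seen. Alternatives were no block, no centring, percentiles in place of fold, lists reduced to 16879 peaks, peaks with −log10 p of at least 10, features found in at least 10 libraries, a promoter of 1 kb before to 500 bp after the start, an overlap of 200 bp, and leaving out each library.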

Additional observations from a re-analysis of the deposited data

Results flagged for a closer look

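The Bmpr1b promoter fold in K27M telencephalon culture 51 was 4.48, while the other 3 cultures of that group lay between 3.82 and 3.89, a gap larger than Dixon's 95% critical value for 4 samples. The value was the highest of all 13 libraries, and this library's list, with 52164 peaks, was one of the longest. Only the K27M telencephalon group has 4 samples, so 9 promoters and 7 peaks outside promoters, 16 in all, were examined in that group, and chance marks about 1 in 20. The mark applies to the deposited folds: after centring by library, the scale of the main test, the 4 cultures lay between 0.16 and 0.18 on the log2 scale. Without this library the Bmpr1b log2 difference of K27M from control was 0.21, and the adjusted p stayed above the threshold.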

How the results depend on the processing

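None of the 8 promoters and 15 locus peaks in the fold tests, and none of the locus peaks or promoters in the detection tests, was called in any alternative that gave a value; all 201 recomputed counts of calls were 0, as in the main tests. With no replicate block 0 promoters and 0 locus peaks were called, so the pairing by culture number changed no call of these genes; over all promoters 4 were then called by region, against 2 with the block. For detection an exact test with a replicate block, in which labels were exchanged within culture number, called 0, and its p for the innermost Bmpr1b start was 0.00926. At a −log10 p of at least 10 no member promoter was left in all 13 libraries, so the fold tests could not be run for them. Over all promoters the number called by region ran from 0 to 6 over the alternatives, and by genotype from 0 to 2; over all merged peaks both ranges were the same, with 6 by region without K27M telencephalon culture 59 against 3 in the main test. It was 0 by region without centring and with percentiles, and 6 without K27M brainstem culture 41 and without K27M telencephalon culture 41, against 2 in the main test; by genotype it was 2 without K27M brainstem culture 61 and 0 in the main test. The cause was not tested.

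Of the single values, Bmpr1b by genotype kept its sign in all 19 alternatives and had an unadjusted p under 0.05 in 13. That p was above 0.05 without K27M brainstem culture 59 (0.147), without control brainstem culture 59 (0.0743), without K27M telencephalon culture 59 (0.0531) and without control telencephalon culture 59 (0.0933), without centring (0.121), and at the outermost start alone (0.179, difference 0.11 against 0.19), an alternative chosen after seeing the data. Bmpr1a by region kept its sign in all 19 and had an unadjusted p under 0.05 in 6. The peak upstream of Id1 by genotype had an unadjusted p under 0.05 in each alternative run except without centring (0.0612). Without centring the median of all promoters moved by −0.10 for the interaction of genotype and region. The innermost Bmpr1b start kept an unadjusted p of 0.0152 or less when any library was left out, while the peak upstream of Id3 ran from 0.0152 to 0.0801 (Fisher's exact test). The depth is unknown, and for the weak promoters of Bmp4 and Smad6 the lists limit what can be detected.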
